A study of Mus musculus with 16 samples.

Results

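Complex I, the NADH:ubiquinone oxidoreductase of the inner mitochondrial membrane, is the entry point of most electrons into the respiratory chain. Its genes were taken here as every gene of the deposited mouse tibialis anterior table whose symbol begins with Nduf, 48 of the 14538 listed. These comprise 36 subunit genes, 8 assembly factor genes (Ndufaf1 to Ndufaf8), Ndufa4 and its paralogue Ndufa4l2, Ndufb4c, which GENCODE annotates as a processed pseudogene, and the pseudogene Ndufs5-ps. A mean of at least 10 normalized counts was reached by 47 of them, among 11841 genes tested. Ndufs5-ps did not reach it, with values between 0 and 10.5 normalized counts in the 16 libraries.

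RNA-seq libraries were made from tibialis anterior, a hindlimb muscle, of WT mice labelled C57BL/6 (male C57BL/6J mice in the study's methods), with 1 library per mouse. All mice had received a NASH diet (a diet used to bring on fatty liver disease) in housing at about 29 °C from 8 weeks of age. There were 5 mice given vehicle, 6 given recombinant GDF15 by subcutaneous injection once each morning, and 5 pair-fed mice (numbered 2 to 6) that were offered the food weight eaten by GDF15-treated mice the day before. The labels list several GDF15 doses without assigning one to these mice. Pair-fed mice against vehicle-treated mice addressed reduced food intake, GDF15-treated against pair-fed mice addressed GDF15 at matched intake, and GDF15-treated against vehicle-treated mice addressed both together. The same mice enter more than 1 of these comparisons. Approximate depth was 9514787 to 15057271 reads per library.

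Complex I has an L shape. Its matrix arm takes electrons from NADH at a flavin (the N module) and hands them through iron-sulphur clusters to ubiquinone (the Q module), and its membrane arm pumps protons. The catalytic core is surrounded by accessory subunits that stabilise it, and assembly factors help to build it without staying in the finished enzyme. Skeletal muscle fibres of different types differ in mitochondrial content. The mitochondrially encoded core subunits were not analysed here, so the text concerns nuclear genes, and in whole muscle fewer cells of a type and less RNA per cell cannot be told apart.

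Levels spanned a wide range. In normalized counts per kilobase of the annotated principal transcript, averaged over all libraries, the 36 subunit genes lay between 604 (Ndufb2) and 7342 (Ndufb9), with a median of 2661. The 8 assembly factor genes lay lower, between 127 (Ndufaf3) and 464 (Ndufaf5). Ndufa4, whose product is now placed in complex IV, was the highest of the 47 at 10315, and Ndufa4l2, its hypoxia-inducible paralogue, the lowest at 120. These levels depend on the annotated length. Ndufb2 has a principal transcript of 2413 bases and a mean of 1457 normalized counts. The median coefficient of variation between mice over the 47 genes was 4.40% in the vehicle group, 6.31% in the GDF15 group and 6.68% in the pair-fed group. All 390 bases of the annotated Ndufb4c transcript are found in an annotated Ndufb4 transcript, so reads may have been divided between them, and both their levels (1447 and 711 mean normalized counts) are uncertain. Ndufb2, Ndufb8 and Ndufb9 overlap read-through genes on the same strand, and Ndufs1, Ndufs3, Ndufs6 and Ndufaf3 are among those that overlap exons of a gene on the other strand.

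The differences that passed the test lay mainly between pair-fed and vehicle-treated mice. With limma and Benjamini-Hochberg adjustment over all genes, 8 of the 47 (17.0%) fell in pair-fed relative to vehicle-treated mice at an adjusted p under 0.1 and none rose, whereas 6.37% of all tested genes passed in either direction and 3.17% passed as lower. The 8 genes fell by 9.13% (Ndufb9) to 14.4% (Ndufab1), and none of the 47 also passed the fold threshold of 0.6 on the log2 scale, which 0.819% of all genes did. At an unadjusted p under 0.05 there were 23 of 47, all lower, against 18.9% of all genes. A negative fitted difference was found for 43 of 47 genes (91.5%, against 49.8% of all genes), and the median log2 difference was -0.12 over the 47 and 0.00 over all genes. The 8 genes belong to both arms and to assembly: Ndufv2 of the catalytic core, Ndufs4 and Ndufv3 of the matrix arm, Ndufb9, Ndufb10 and Ndufa8 of the membrane arm, the acyl carrier Ndufab1 and the assembly factor Ndufaf4.

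**Figure D1:**
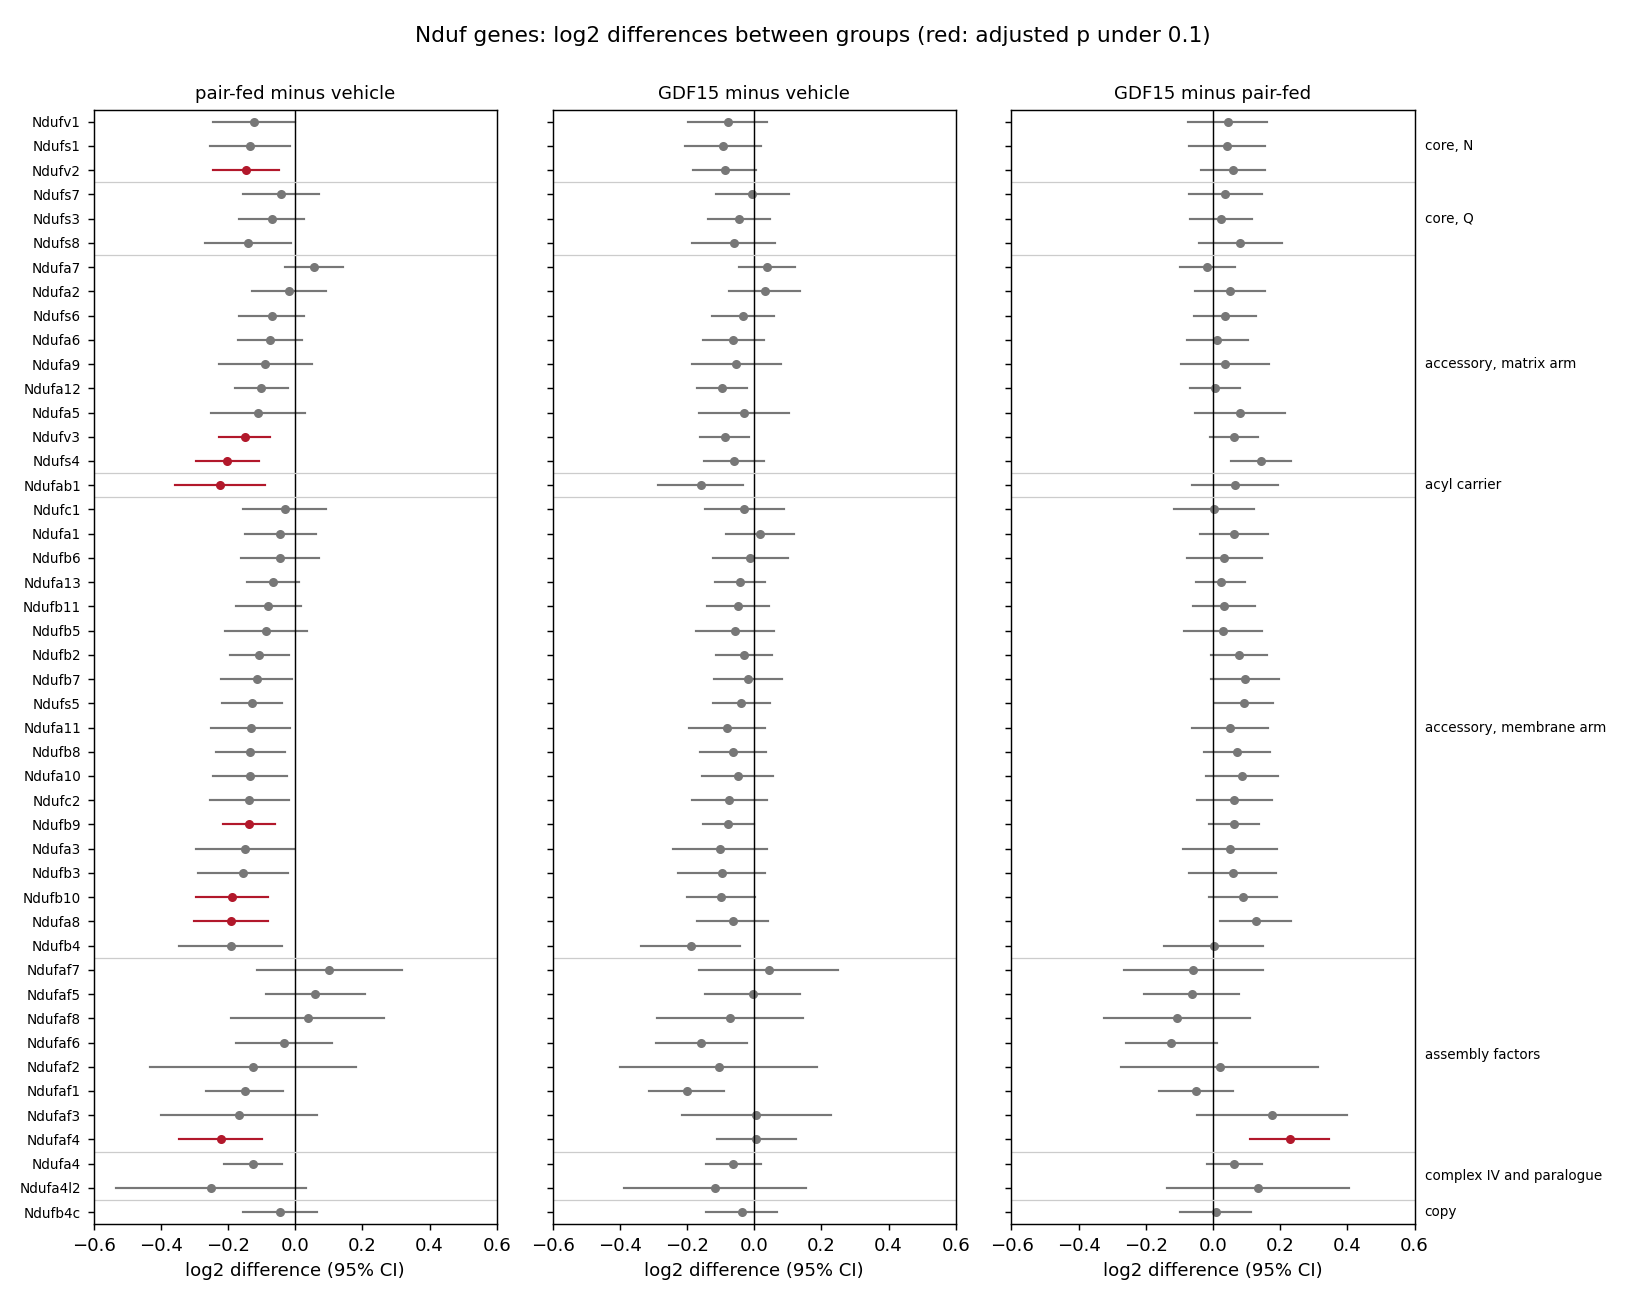
Fitted log2 differences (points, horizontal axis) with 95% confidence intervals (lines) for 46 of the 47 tested genes, grouped by role, in the 3 comparisons; red marks an adjusted p under 0.1. In the left panel 42 of 46 points lie below 0 and 8 are red, in the middle panel none is red, and in the right panel 40 of 46 lie above 0 and Ndufaf4 is red.

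Upstream sequences are shown for those of these 8 genes whose 250 bases before the RefSeq start lie wholly outside the GENCODE gene, Ndufv3, Ndufaf4 and Ndufv2, since all 3 fell together in the same comparison. They are from RefSeq (build GRCm38.p6), 5′ to 3′ on the strand of the gene, with capitals marking matches to the motifs searched on both strands: GCGC, any base and TGCGC in a row (NRF1, a regulator of nuclear genes for mitochondria), GGGCGG (SP1), CCGGAAG (ETS), AAGATGGCG (YY1) and TCAAGGTCA (ERR).
Ndufv3, chr17:31519865-31520114, plus strand: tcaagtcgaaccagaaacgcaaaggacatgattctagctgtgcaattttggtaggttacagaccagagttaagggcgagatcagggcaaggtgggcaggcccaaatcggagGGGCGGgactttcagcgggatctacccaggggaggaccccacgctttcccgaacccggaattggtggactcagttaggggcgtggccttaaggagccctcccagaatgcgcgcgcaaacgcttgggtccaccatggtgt
Ndufaf4, chr4:24897833-24898082, plus strand: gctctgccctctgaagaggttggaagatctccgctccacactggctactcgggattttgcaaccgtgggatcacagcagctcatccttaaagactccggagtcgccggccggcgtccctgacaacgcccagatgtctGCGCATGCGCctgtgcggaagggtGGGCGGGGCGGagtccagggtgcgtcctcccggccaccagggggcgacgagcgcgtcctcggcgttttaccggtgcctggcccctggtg
Ndufv2, chr17:66101560-66101809, minus strand: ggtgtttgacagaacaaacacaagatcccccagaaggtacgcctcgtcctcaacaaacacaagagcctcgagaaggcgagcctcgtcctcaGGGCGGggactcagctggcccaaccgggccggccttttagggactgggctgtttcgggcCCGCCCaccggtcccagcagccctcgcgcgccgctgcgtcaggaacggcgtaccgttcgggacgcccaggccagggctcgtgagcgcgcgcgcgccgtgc
The NRF1 letters are in Ndufaf4 alone of the 3, where the neighbouring SP1 matches overlap each other, and the SP1 letters are in all 3. RefSeq promoter entries were matched for 40 of the 47 genes, which have 42 entries. The NRF1 letters were in 8 of these 42 (19.0%), at Ndufa5, Ndufa8, Ndufa11, Ndufaf4, Ndufb4, Ndufs5 and Ndufs6, and in 3.74% of all 32851 promoters. The SP1 letters were in 45.2% against 32.7%, and the ETS letters in 11.9% against 6.91%. The YY1 and ERR letters were in none of the 42 and in 0.606% and 0.387% of all promoters. Ndufb9 has no entry. A match describes these letters only and is not evidence of binding.

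Ndufs4 (chr13:114287795-114388258, minus strand) encodes an accessory subunit of the N module that is added late in assembly and whose loss is a known cause of Leigh syndrome. Vehicle-treated mice 1 to 5 had 1839.5, 1925, 1868, 1828 and 2051 normalized counts. Pair-fed mice 2 to 6 had 1633, 1705, 1717, 1682 and 1526. The GDF15 group ran from 1739 to 1899.8 with a median of 1831. Every pair-fed mouse lay below every vehicle-treated and every GDF15-treated mouse. Relative to vehicle, Ndufs4 fell by 13.1% in pair-fed mice (log2 difference -0.20, SE 0.04, adjusted p = 0.019). Between GDF15-treated and pair-fed mice the log2 difference was 0.14 (95% CI 0.05 to 0.23, adjusted p = 0.13), and between GDF15-treated and vehicle-treated mice it was -0.06 (95% CI -0.15 to 0.03).

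Ndufv3 (chr17:31520115-31531331, plus strand) encodes a small accessory subunit that sits against the NADH-binding flavoprotein. Its values were 1407, 1371, 1460.3, 1437 and 1452 normalized counts in vehicle-treated mice and 1304, 1327, 1295, 1273 and 1226 in pair-fed mice. The GDF15 group ran from 1301 to 1391 with a median of 1345. Pair-fed and vehicle-treated mice did not overlap, while the GDF15 group overlapped both. The pair-fed difference from vehicle was -0.15 on the log2 scale (SE 0.04, adjusted p = 0.030), and that of the GDF15 group from vehicle was -0.09 (SE 0.03, adjusted p = 0.34).

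Ndufaf4 (chr4:24898083-24905001, plus strand) encodes an assembly factor that acts on the Q module, and was the only one of the 47 called in 2 comparisons. Vehicle-treated mice had 638, 701, 733, 662 and 666 normalized counts. Pair-fed mice had 566, 614, 566, 653 and 521, of which only mouse 5 reached the vehicle range. The GDF15 group ran from 647 to 711 with a median of 686, inside the vehicle range, and its lowest mouse lay below pair-fed mouse 5. Ndufaf4 fell in pair-fed mice relative to vehicle (log2 difference -0.22, SE 0.06, adjusted p = 0.045) and was higher in GDF15-treated than in pair-fed mice (0.23, SE 0.06, adjusted p = 0.062). The difference of the GDF15 group from vehicle was 0.01 (95% CI -0.11 to 0.12). These comparisons share the pair-fed mice. The call against the GDF15 group was lost when GDF15-treated mouse 2, 4 or 5 or pair-fed mouse 2, 4 or 6 was left out, with adjusted p between 0.11 and 0.15, and over all alternatives it ran from 0.027 to 0.19.

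The 3 called membrane arm genes were each lower in every pair-fed mouse than in any vehicle-treated mouse. Ndufb10, a subunit of the distal arm, had 3459, 3325, 3639, 3506 and 3352 normalized counts in vehicle-treated mice and 3005, 3201, 3063, 3084 and 2819 in pair-fed mice. Ndufb9, which binds an acyl carrier protein in the distal arm, had 5308, 5339.6, 5648, 5435 and 5404 against 4901, 5158, 4983, 4944 and 4678. Ndufa8, a subunit on the intermembrane side, had 2565, 2567, 2616, 2467 and 2465 against 2199, 2397, 2362, 2119 and 2043. Pair-fed mouse 6 was the lowest in each of the 3. The GDF15 group ran from 2939 to 3516 in Ndufb10 (median 3202), from 4819 to 5382 in Ndufb9 (median 5171) and from 2177 to 2646 in Ndufa8 (median 2439), overlapping both other groups. The log2 differences of pair-fed from vehicle were -0.19 for Ndufb10 (SE 0.05, adjusted p = 0.047), -0.14 for Ndufb9 (SE 0.04, adjusted p = 0.048) and -0.19 for Ndufa8 (SE 0.05, adjusted p = 0.053).

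Ndufab1 encodes the mitochondrial acyl carrier protein, which serves mitochondrial fatty acid synthesis as well as complex I. Vehicle-treated mice had 2329.6, 2427, 2349, 2366 and 2258 normalized counts and pair-fed mice 1935, 2234, 2021, 2155 and 1732, with no overlap. The GDF15 group ran from 1914 to 2308 with a median of 2059, overlapping both. Its log2 difference from vehicle was -0.22 in pair-fed mice (SE 0.06, adjusted p = 0.060) and -0.16 in GDF15-treated mice (SE 0.06, adjusted p = 0.32). Ndufv2, the core subunit with an iron-sulphur cluster next to the flavin, had 5517, 5134, 5505, 5009 and 5308 in vehicle-treated and 4611, 5228, 4778, 4864 and 4446 in pair-fed mice, which overlap through pair-fed mouse 3. The GDF15 group ran from 4618 to 5243 with a median of 5018, overlapping both. Ndufv2 was the least secure call (log2 difference -0.15, SE 0.05, adjusted p = 0.093).

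**Figure D2:**
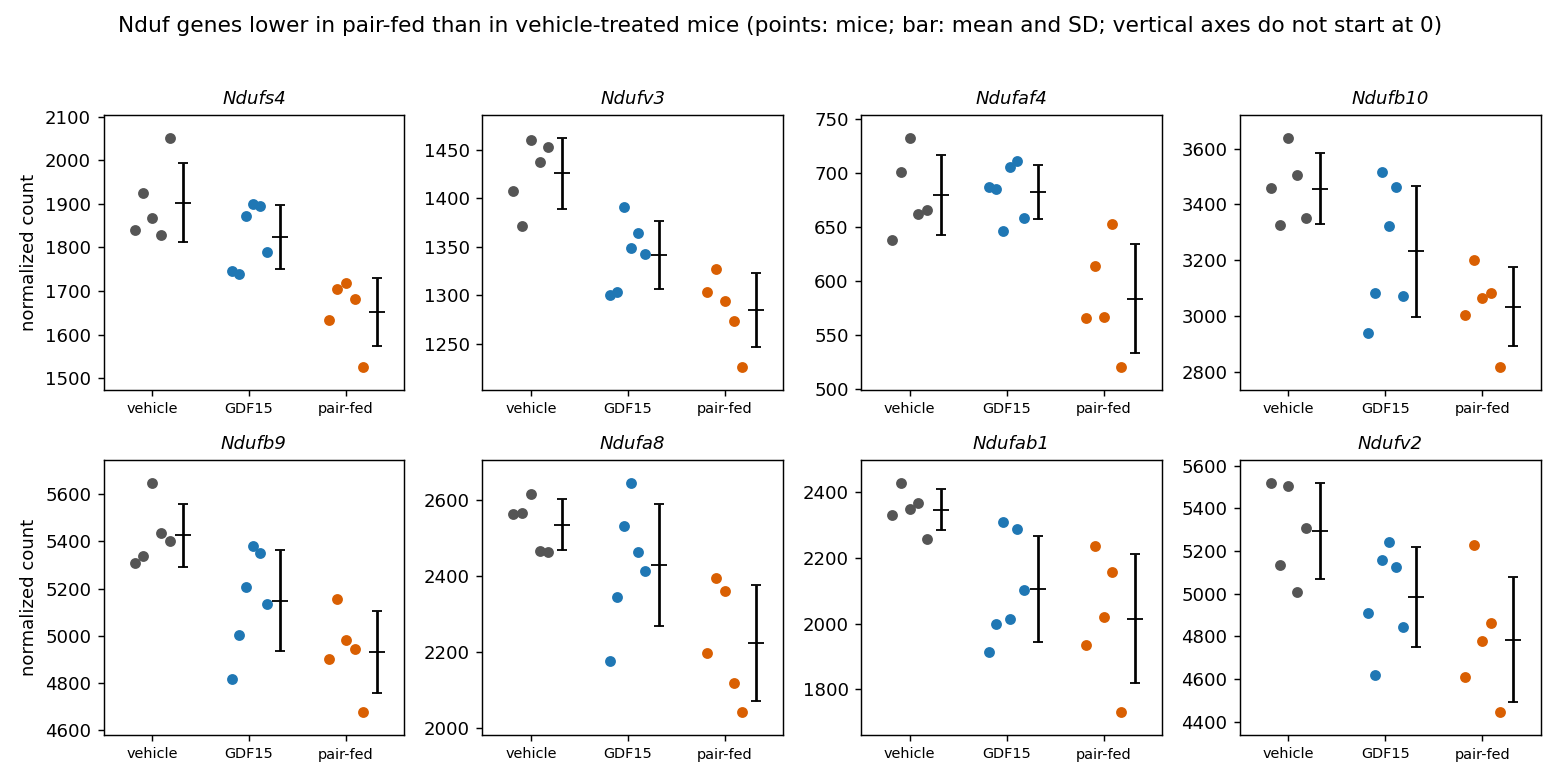
Normalized counts (vertical axes, not starting at 0) of the 8 genes that fell in pair-fed mice, with 1 point per mouse and the mean and SD beside each group. Vehicle and pair-fed points do not overlap for Ndufs4, Ndufv3, Ndufb10, Ndufb9, Ndufa8 and Ndufab1, and they overlap for Ndufaf4 and Ndufv2.

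The calls rest in part on single mice. Without vehicle-treated mouse 3, or without pair-fed mouse 6, 2 genes passed, Ndufs4 and Ndufv3, in both cases. That is 4.26% of the 47, beside 4.22% and 3.47% of all tested genes called in either direction without these mice. The share of all genes called as lower was not computed without them, so a higher share among complex I genes was not shown there. Negative differences remained for 43 and 41 of the 47, with medians of -0.11 and -0.095. Without vehicle-treated mouse 2 or pair-fed mouse 2 there were 4 called (8.51%, against 4.02% and 3.89% of all genes in either direction). Without pair-fed mouse 3 there were 14 (29.8%, against 8.88% of all genes in either direction). Non-overlapping groups, all lower in pair-fed mice, were seen in 7 of 47 genes (14.9%), against 5.44% of all genes in either direction and 2.65% as lower. Besides 6 of the called genes these included Ndufa12, an accessory subunit of the matrix arm, with a log2 difference of -0.10 (SE 0.04, adjusted p = 0.15). Just outside the threshold were Ndufa4 (-0.13, adjusted p = 0.1002) and Ndufs5 (-0.13, adjusted p = 0.10).

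By role, the 7 nuclear core genes all had negative differences between pair-fed and vehicle-treated mice, but only Ndufv2 passed. Of the N module, Ndufv1 (the flavin subunit) lay at -0.12 and Ndufs1 (the largest iron-sulphur subunit) at -0.13. Of the Q module, Ndufs8 lay at -0.14, Ndufs3 at -0.07 and Ndufs7 at -0.04. Among the 19 accessory genes of the membrane arm all differences were negative (median -0.13) and 3 passed, and among the 9 of the matrix arm 8 were negative (median -0.09) and 2 passed. Over all tested genes 49.8% were negative and 3.17% passed as lower, and differences between the roles were not tested. The matrix arm gene with a positive difference was Ndufa7 at 0.06 (95% CI -0.03 to 0.14), and Ndufa2 was also close to 0 at -0.02 (95% CI -0.13 to 0.09).

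Of the 8 assembly factors, 5 had negative and 3 positive differences between pair-fed and vehicle-treated mice, beside 49.8% negative among all genes, and Ndufaf4 alone passed (3.17% of all genes passed as lower). Ndufaf1, of the complex that builds the membrane arm, lay at -0.15 (adjusted p = 0.14). Ndufaf3, the partner of Ndufaf4, lay at -0.17 (95% CI -0.40 to 0.06), and Ndufaf2, which acts late in assembly, at -0.13 (95% CI -0.43 to 0.18). Ndufaf6, an early factor, lay at -0.03 (95% CI -0.18 to 0.11). Ndufaf5, a hydroxylase of Ndufs7, lay at 0.06, its partner Ndufaf8 at 0.04 and Ndufaf7, a methyltransferase needed for assembly, at 0.10. With scaling to equal totals the Ndufaf8 difference turned to -0.01. Of 12 assembly factor genes outside the Nduf names, none passed, with a median of -0.06. Ndufa4l2 had the lowest value of all 47 (-0.25) with a wide interval (-0.53 to 0.03).

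GDF15 treatment against vehicle gave no called gene among the 47 with limma, while 0.769% of all genes passed, 0.304% with the fold threshold as well. No gene of the 47 had non-overlapping groups, against 1.65% of all genes. At an unadjusted p under 0.05 there were 7 of 47 (14.9%, against 11% of all genes), all lower: Ndufaf1, Ndufb4, Ndufa12, Ndufab1, Ndufv3, Ndufaf6 and Ndufb9. Negative differences were found for 41 of 47 (87.2%, against 49.6% of all genes), with a median of -0.06 over the 47 and 0.00 over all genes. With depth as a covariate 43 of 47 were negative, with a median of -0.09. Ndufaf1 had the smallest adjusted p. Its values were 627, 620.0, 676, 564 and 601 normalized counts in vehicle-treated mice, and the GDF15 group ran from 494 to 564 with a median of 539.6. The groups met at the lowest vehicle-treated mouse (number 4). Its log2 difference was -0.20 (SE 0.05, adjusted p = 0.13), and without vehicle-treated mouse 4 it passed (adjusted p = 0.084). Over all alternatives its adjusted p ran from 0.084 to 0.32. Ndufb4, whose reads may be shared with Ndufb4c, lay at -0.19 against vehicle in both the GDF15 group (adjusted p = 0.31) and the pair-fed group (adjusted p = 0.16).

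GDF15-treated against pair-fed mice gave Ndufaf4 alone (1 of 47, 2.13%, against 2.17% of all genes in either direction and 0.929% as higher), so the share called was that of the background. No gene passed both thresholds, against 0.279% of all genes. At an unadjusted p under 0.05 there were 4 of 47 (8.51%, against 13.2%): Ndufaf4, Ndufs4, Ndufa8 and Ndufs5. Positive differences were found for 41 of 47 (87.2%, against 50.8%), with a median of 0.05 over the 47 and 0.00 over all genes. Without pair-fed mouse 6 there were 32 of 47 with a median of 0.020, and with depth as a covariate 32 of 47 with a median of 0.022. With scaling to equal totals there were 42 of 47 with a median of 0.092, beside a median of 0.045 over all genes. Positive differences in this comparison were also found for most genes of complexes II to V, described below. Groups did not overlap in 1 gene, Ndufs4, against 1.77% of all genes in either direction and 0.718% as higher. The largest difference not called was that of Ndufaf3 (0.17, 95% CI -0.05 to 0.40), and the lowest was that of Ndufaf6 (-0.12, 95% CI -0.26 to 0.01). Ndufb7, a membrane arm subunit, lay at 0.10 (95% CI -0.01 to 0.20) and Ndufs5 at 0.09 (95% CI 0.01 to 0.18).

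Agreement between mice was examined by averaging the 47 log2 differences from the vehicle mean within each mouse. The vehicle-treated mice lay at -0.03, 0.01, 0.06, -0.04 and 0.00. The pair-fed mice 2 to 6 lay at -0.13, -0.04, -0.08, -0.07 and -0.20, all below every vehicle-treated mouse, though mouse 3 only narrowly. In the GDF15 group the mean ran from -0.14 to 0.01. Mice 3, 4 and 5 lay at 0.01, -0.01 and 0.00, within the vehicle range, and mice 1, 2 and 6 at -0.14, -0.10 and -0.11, below it. Of the 47 genes, 45, 42 and 44 lay below the vehicle mean in GDF15-treated mice 1, 2 and 6, and 24, 21 and 24 in mice 3, 4 and 5. The same count was 41, 29, 41, 37 and 45 in pair-fed mice 2 to 6, and 27, 20, 10, 36 and 25 in the vehicle-treated mice themselves. The labels give nothing that separates GDF15-treated mice 1, 2 and 6 from mice 3, 4 and 5. Approximate depth was 13868473, 13082255 and 11544792 reads in mice 1, 2 and 6 of that group. It was 10521937, 9514787 and 12751573 in mice 3, 4 and 5. The part of depth in this split was not tested. Group means were -0.06 ± 0.07 (SD, n = 6) for GDF15 and -0.10 ± 0.06 (n = 5) for pair-fed mice, beside an SD of 0.04 among vehicle-treated mice. The subunit genes together took 0.795% to 0.842% of normalized counts in vehicle-treated, 0.722% to 0.830% in GDF15-treated and 0.694% to 0.801% in pair-fed mice.

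**Figure D3:**
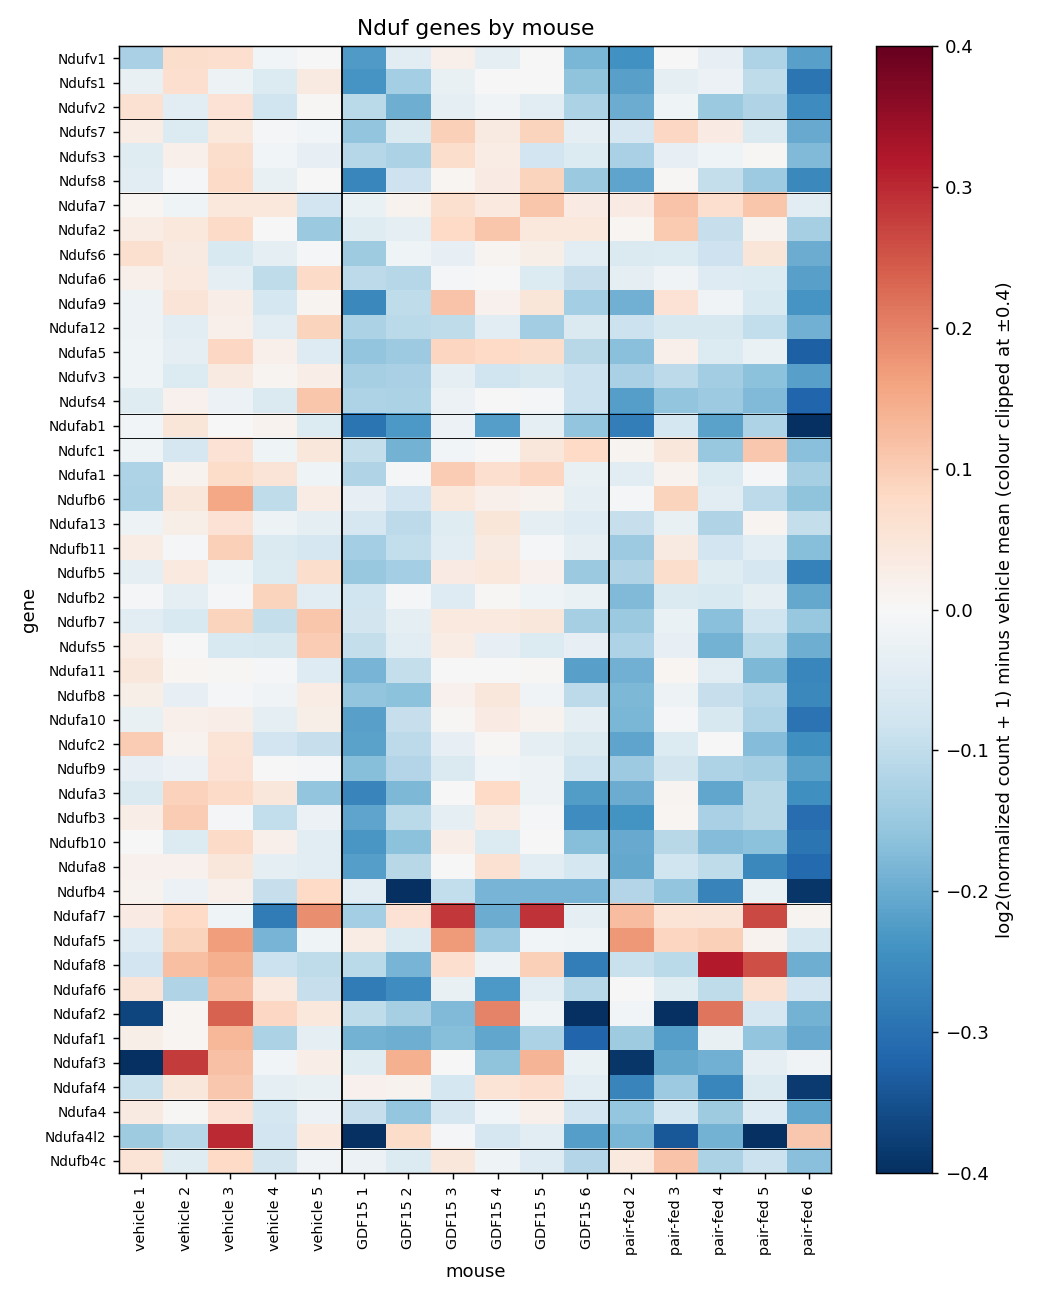
Colour map of log2(normalized count + 1) minus the vehicle mean for 46 of the 47 genes (rows, grouped by role) in the 16 mice (columns), with colours clipped at 0.4 in either direction. GDF15-treated mice 1, 2 and 6 and pair-fed mice 2, 4, 5 and 6 are blue over most subunit genes, GDF15-treated mice 3, 4 and 5 and pair-fed mouse 3 are mixed, and the assembly factors at the foot vary from gene to gene.

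The genes also varied together within groups. After each group's mean was removed, the mean pairwise correlation over the 16 libraries was 0.574 among the 36 subunit genes and 0.268 among the 8 assembly factor genes, beside 0.657 for 41 genes of complexes II to V, 0.12 for 78 mitochondrial ribosomal protein genes and close to 0 for all tested genes. These values share the scaling and RNA of each library and carry no test. Of 1081 pairs among the 47 genes, 1001 (92.6%) were positive, with a median of 0.476. The genes most alike the rest were Ndufa5 (mean correlation 0.629), Ndufa9 (0.611), Ndufa10 (0.607) and Ndufs8 (0.603). Ndufa4, at 0.516, was like the subunit genes. The least alike were Ndufaf2 (0.0651), Ndufaf3 (-0.0141) and Ndufa4l2 (-0.0419), which had mean normalized counts of 106, 189 and 113.

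The remaining respiratory complexes gave a similar picture, so that the pattern was not shown to be particular to complex I. In pair-fed relative to vehicle-treated mice 6 of 41 genes of complexes II to V fell (14.6%, against 6.37% of all genes in either direction and 3.17% as lower). They were Uqcrq of complex III (-0.23), Cox7a1 of complex IV (-0.24), and Atp5h (-0.17), Atp5j (-0.18), Atp5k (-0.20) and Atp5pb (-0.18) of complex V. All 41 differences were negative (against 49.8% of all genes), with a median of -0.12. Of 78 mitochondrial ribosomal protein genes 6 fell (7.69%, against 6.37% of all genes in either direction and 3.17% as lower): Mrpl12, Mrpl19, Mrpl34, Mrpl45, Mrpl51 and Mrps6. Their median was -0.08. Against vehicle, GDF15-treated mice gave none in either list, with medians of -0.06 and -0.04, and 4 of 41 (9.76%) and 7 of 78 (8.97%) genes at an unadjusted p under 0.05, against 11% of all genes. With GDF15 set against pair-feeding, 40 of the 41 genes were higher (median 0.06) and none was called. Of the 78 ribosomal protein genes 57 were higher (median 0.04), against 50.8% of all genes. Mrpl45 (0.20, adjusted p = 0.049) and Mrps6 (0.27, adjusted p = 0.094) passed, both higher. That is 2.56%, against 2.17% of all genes in either direction and 0.929% as higher. Mean log2 deviations of complexes II to V by mouse reached -0.19 in GDF15-treated mouse 1 and -0.26 in pair-fed mouse 6, as for the complex I genes.

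**Figure D4:**
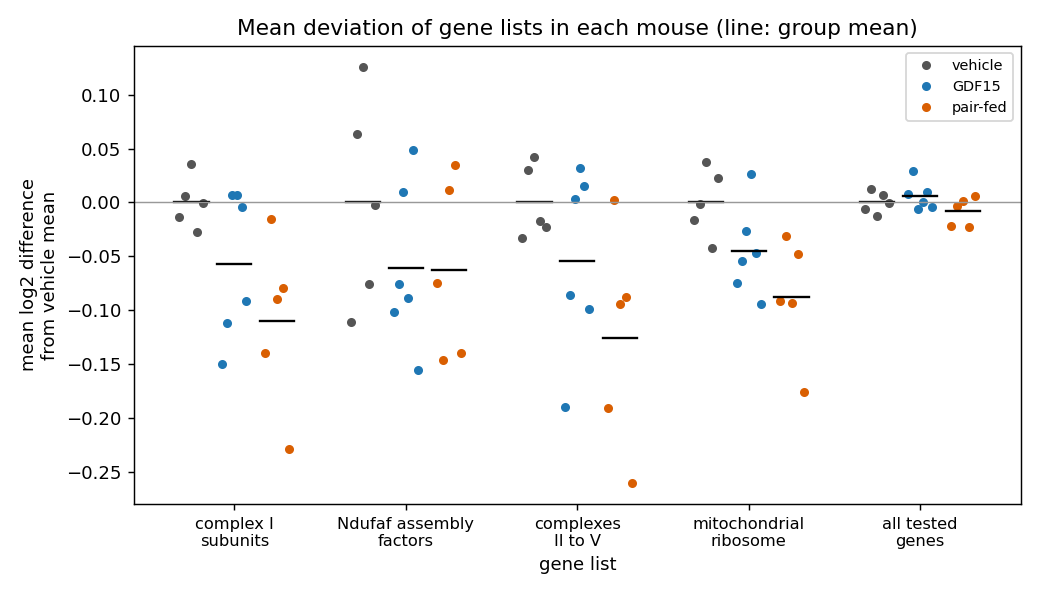
Mean log2 difference from the vehicle mean (vertical axis) of 5 gene lists in each mouse (points), with group means as lines. For complex I subunits and for complexes II to V, 3 GDF15-treated mice lie near 0 and 3 lie lower, while 4 of 5 pair-fed mice lie below all vehicle-treated mice; all tested genes stay near 0.

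Fibre type genes also differed between groups. The tissue carried its label, with Myh4, the myosin of fast type IIB fibres, at 823074 ± 80098 (SD, n = 5) normalized counts in vehicle-treated mice. Myh1, the myosin of type IIX fibres, fell in pair-fed mice (log2 difference -0.68, SE 0.14, adjusted p = 0.012). Of the 10 fast fibre genes listed, 3 others rose: Actn3 (0.33, adjusted p = 0.017), Pvalb (0.27, adjusted p = 0.054) and Ckm (0.15, adjusted p = 0.0997). Actn3, an actin-binding protein of fast fibres, was also lower in GDF15-treated than in pair-fed mice (-0.27, adjusted p = 0.068), the comparison in which Ndufaf4 was called. No gene of either fibre list passed between GDF15-treated and vehicle-treated mice. None of the 8 slow and oxidative fibre genes passed, and their summed counts ranged from 24366 to 38363 in vehicle-treated, 14707 to 35506 in GDF15-treated and 10842 to 32707 in pair-fed mice. By mouse, Myh1 was 174894, 166269, 188359, 166146 and 131259 normalized counts in vehicle-treated mice 1 to 5, 113816, 127478, 153468, 137430.0, 166367 and 114728 in GDF15-treated mice 1 to 6, and 77806, 139363, 110927, 99493 and 95028 in pair-fed mice 2 to 6. The lowest GDF15 values were those of mice 1, 6 and 2, whose complex I means were also the lowest of that group. In each of the other groups mouse 3 had both the highest Myh1 and the highest complex I mean. Pair-fed mice 2 and 6 were the lowest of their group in both, but mouse 2 had the lowest Myh1 and mouse 6 the lowest complex I mean. Vehicle-treated mouse 5 had the lowest Myh1 of its group with a complex I mean of 0.00. The part of Myh1-expressing and other fast fibres in the differences was not tested.

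Genes of other cell types in muscle gave few differences. Of 5 endothelial genes only Kdr passed, lower than vehicle both in pair-fed (-0.50, adjusted p = 0.0047) and in GDF15-treated mice (-0.66, adjusted p = 0.0012), and the summed endothelial level ranged from 5003 to 5871 in vehicle-treated, 4290.1 to 5133 in GDF15-treated and 4410.3 to 5319 in pair-fed mice. None of the tested adipocyte, macrophage, fibroblast, Schwann cell, satellite cell and red blood cell genes passed in any comparison, and Alas2 of the red blood cell list was at 0 in at least 1 library. Their part in the complex I differences was not tested.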

How the data were processed

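Reads from 16 tibialis anterior libraries (5 vehicle, 6 GDF15, 5 pair-fed; 1 per mouse, groups from the labels) had been trimmed with Trim Galore, quantified with Salmon and scaled with DESeq2, with mm10 named in the submitters' processing notes. Versions and the annotation and strand setting used for counting are not given in the sources used here; the library kit was directional. The authors deposited variance-stabilized values on a log2 scale, 1 per gene and library, from 7.32 to 19.96, for 14538 genes. Of these, 8459 values lie at the minimum, which stands for a count of 0. They were transformed back to normalized counts with the inverse of the parametric transformation. Low values of genes with 1 transcript fell within 0.1 reads of whole multiples in 88.6% to 96.8% of cases per library, but in 20.2% to 26.2% for genes with more than 4 transcripts, so whole reads were not recovered and no count test was run. Depth was approximated from the size of 1 read, and at this depth counting noise adds to the spread of the genes with few counts.

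The 11841 genes averaging 10 or more normalized counts were fitted with limma 3.58.1 (R 4.3.3; lmFit, contrasts.fit, eBayes with trend) on log2(normalized count + 1), 1 fit over the 3 groups without covariates, and Benjamini-Hochberg adjustment over all genes. Fold changes are on this scale. Calls required an adjusted p under 0.1, and also a log2 fold change above 0.6 in size where both thresholds are named. All tests are two-sided. The script was tested on simulated data. Tables and figures were made with Python 3.11.15, pandas 2.3.3, numpy 2.4.6 and matplotlib 3.10.9. Gene positions and transcript lengths are from GENCODE (GRCm38), and promoter sequences from RefSeq (GRCm38.p6).

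The groups share mouse numbers but not animals. Deviations from the group mean correlated between same-numbered mice at -0.0994 to 0.0665 (14 pairs, median -0.0303), and between the others at -0.112 to 0.194 (71 pairs), so the numbers were not taken as pairs. The members, role lists and marker lists were chosen with earlier results of these data known, and their counts are descriptions. Genes given values were the nuclear core subunits, the Ndufaf genes, Ndufa4, Ndufa4l2 and Ndufab1, the 5 smallest p-values and the 3 highest and lowest fold changes in each comparison, and the 3 highest and lowest mean levels. The genes most and least alike the rest, all those called and those outside Nduf that were called were named as well. Alternatives covered pseudocount, filter, scaling, trend, weights, covariates, length and GC content, a replicate block and leaving out each library. Mitochondrially encoded subunits were not analysed here, and 1 core subunit gene is counted with the rest but its own values are not reported here.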

Additional observations from a re-analysis of the deposited data

Results flagged for a closer look

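Of 90 groups of values examined for single mice far from the rest (each named gene, and the mean over the 47 genes, in each group), 1 stood out. Chance alone would flag about 1 in 20 such groups, so 1 of 90 is no more than chance gives. The groups share mice and genes that vary together. Ndufa12 in the pair-fed group was 2528 normalized counts in mouse 6, while the other 4 pair-fed mice lay between 2695 and 2762. The gap took 0.712 of the group's range. The same mouse had the lowest mean over the 47 genes of its group (-0.20).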

How the results depend on the processing

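No complex I gene passed both thresholds under any alternative in any comparison. The median log2 difference over the 47 genes kept its direction in all of them. Leaving out 1 mouse gave medians of -0.1367 to -0.0949 for pair-fed against vehicle, -0.0733 to -0.0382 for GDF15 against vehicle and 0.0197 to 0.0746 for GDF15 against pair-fed mice.

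The count of genes lower in pair-fed than vehicle-treated mice was 8. The shares of all genes set beside the counts below are of calls in either direction. It became 3 without the trend (6.38%, against 4.82% of all genes), 19 with equal totals (40.4% against 8.73%, median of all genes -0.05), 13 with quantile normalization (27.7% against 6.95%), and 5 at an adjusted p under 0.05 (10.6% against 3.39%). The replicate block gave 6 (without Ndufaf4 and Ndufv2; 12.8% against 4.39%), and the block with length and GC correction gave 5 (10.6% against 3.77%). Leaving out 1 mouse gave 2 to 14 (4.26% to 29.8%), while the share of all genes ran from 3.43% to 8.88%. Ndufs4 and Ndufv3 passed under every alternative here, the stricter threshold included, with adjusted p up to 0.057 and 0.085 across the alternatives run at 0.1. The single call between GDF15-treated and pair-fed mice became 0 without the trend, with only those groups, with depth as covariate or at 0.05, became 2 with equal totals (4.26% against 2.41%), and was 1 with the replicate block (2.13% against 1.6%). Where it became 0, between 0.777% and 1.03% of all genes passed. Leaving out 1 mouse gave 0 to 1, as it did for GDF15 against vehicle. The cause of these shifts was not tested. The numbers do not mark shared animals.

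Some log2 differences near 0 changed sign, none of them past the test. The reported value stands in parentheses after each gene, followed by the value under the alternative named. Between GDF15-treated and pair-fed mice these were Ndufa12 (0.0059) -0.0039 (length and GC), -0.0002 (block with correction), Ndufa2 (0.051) -0.0038 (depth), Ndufa7 (-0.017) 0.0258 (equal totals), Ndufb4 (0.0022) -0.0124 (weights), -0.003 (trimmed means), -0.0011 (quantiles), -0.0231 (depth), -0.0053 (length and GC), -0.0162 (replicate block), -0.0234 (block with correction), Ndufs3 (0.025) -0.0226 (depth). Leaving out 1 mouse there gave Ndufa12 -0.0168 to 0.0152, Ndufaf2 -0.0937 to 0.1053, Ndufb4 -0.0473 to 0.0525, Ndufs3 -0.0017 to 0.0429, Ndufs7 -0.0033 to 0.0678. Between GDF15-treated and vehicle-treated mice these were Ndufa2 (0.031) -0.0188 (depth), Ndufaf3 (0.0066) -0.0067 (weights), -0.0201 (length and GC), -0.0103 (replicate block), -0.0373 (block with correction), Ndufaf4 (0.006) -0.0037 (depth), Ndufaf5 (-0.0045) 0.0099 (depth), 0.0097 (replicate block), 0.0088 (block with correction), Ndufs7 (-0.006) 0.0013 (weights), 0.0124 (replicate block). Leaving out 1 mouse there gave Ndufa2 -0.0057 to 0.05, Ndufaf3 -0.0961 to 0.0764, Ndufaf4 -0.0165 to 0.0332, Ndufaf5 -0.0511 to 0.0371, Ndufaf7 -0.0273 to 0.0911, Ndufb7 -0.0428 to 0.0086, Ndufs7 -0.0264 to 0.0245. Between pair-fed and vehicle-treated mice these were Ndufaf8 (0.037) -0.0102 (equal totals). Leaving out 1 mouse there gave Ndufa2 -0.0566 to 0.0085, Ndufaf8 -0.0333 to 0.0946.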
